A study of Mus musculus with 12 samples.

Results

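Bone marrow-derived macrophages (BMDMs), which are macrophages grown from mouse bone marrow in macrophage colony-stimulating factor, were compared between libraries from Wnt3a-treated cells and libraries from cells given IL-4 alone. The comparison set 3 libraries called the remainder against 3 IL-4 libraries, paired within 3 mice, out of 12 deposited columns of read counts. For each mouse and gene, the remainder was 2 times the count in the Wnt3a+IL-4 column minus the count in the Wnt3a column. In each mouse, 0 of 48526 genes had a Wnt3a count below the Wnt3a+IL-4 count or above 2 times that count, while 6681 to 8625 genes did so when the columns came from different mice. Both columns of a mouse can therefore be written as sums of the remainder and of a part called the difference, which is what is left of the Wnt3a column after the Wnt3a+IL-4 column is subtracted.

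The labels do not prove which culture the remainder came from, and no measured value was used to decide it. Under a first assignment the remainder is the culture given Wnt3a and IL-4 together, so that the comparison asks what differed when Wnt3a was added to IL-4. Under the reverse assignment it is the culture given Wnt3a without IL-4, so that each treatment is compared with the other. Under either, the remainder came from cells labelled as treated with Wnt3a. The difference libraries, which are the other Wnt3a-treated part, are given beside the remainder where their values depart from it in sign.

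Cells of female C57Bl/6J mice were used at day 7 of culture. The IL-4 libraries received 100 pg/mL IL-4 for 16 hr and no Wnt3a, and the Wnt3a columns received 100 ng/mL Wnt3a for 16 hr, with 0 or 100 pg/mL IL-4. Untreated libraries of the same 3 mice served to define which genes IL-4 moved, and their levels are given for some genes. Untreated and difference libraries were also part of the joint fit behind the comparison of remainder and IL-4 libraries. Depth was 16998867, 16411730 and 15707213 counts for the remainder of mouse 1, 2 and 3, against 17113982, 15600113 and 13342492 for their IL-4 libraries. All levels below are CPM, the usual depth-scaled count, here after TMM scaling of library totals, and are listed for mouse 1, 2 and 3 in that order. The whole culture was sequenced, so fewer cells of a type and less RNA per cell cannot be told apart. The 18 genes of macrophage identity summed to 64793 to 71533 CPM in the IL-4 libraries and to 67707 to 69598 CPM in the remainder. The sum joins members of opposite direction, of which *Lyz2*, which was not called, had means of 37857 and 46923 CPM and *Apoe*, which was called lower, of 12812 and 4776 CPM in IL-4 and remainder libraries. All 4 Y-linked genes examined were at 0 counts in all 12 libraries.

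IL-4 acts on macrophages through a receptor made of the IL-4 receptor alpha chain and a partner chain, with Janus kinases and the transcription factor STAT6 downstream, and is known for inducing genes of alternative activation such as *Arg1*, *Retnla* and *Mrc1*. Wnt3a binds Frizzled and LRP5/6 receptors, which stabilises β-catenin and lets it act with TCF and LEF factors on targets such as *Axin2*. SOCS proteins are feedback inhibitors that cytokine receptors induce, and prostaglandin E2 (PGE2) is a lipid mediator that macrophages make through COX-2.

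Of 12421 genes tested, 2316 (18.6%) differed between remainder and IL-4 libraries in edgeR's quasi-likelihood test with the mouse as a term (Benjamini-Hochberg adjusted p under 0.05, here termed called, with the standard error of a log2 fold change given as SE). Of these, 1219 (9.81% of the genes tested) were higher and 1097 (8.83%) lower in the remainder. The 2 groups did not overlap in 2278 of the called genes, and 2314 went the same way in all 3 mice. Both were counted only among genes called from these same libraries, so they follow largely from the call and give no separate support. A change of at least 2-fold was reached by 437 called genes that were higher and 284 that were lower. At 8-fold these numbers were 64 and 16. Over all genes tested the median log2 fold change was -0.016. The remainder library of mouse 2 stood apart most, with an SD across genes of 0.348 log2 units from the mean of the other two remainder libraries, against 0.219 to 0.293 for the other 5 libraries compared. The count of called genes was 3324 without that library. Without mouse 3 it was 906.

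**Figure D1:**
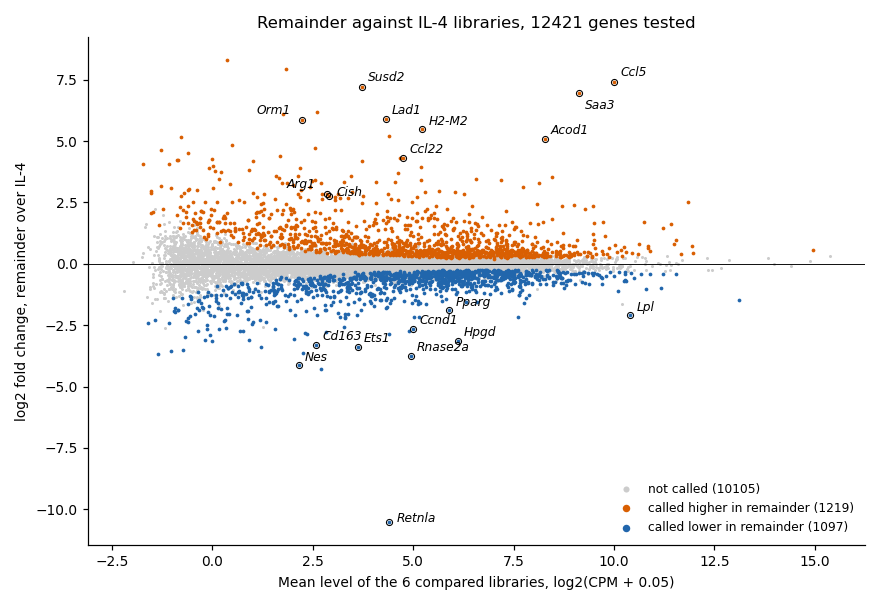
Mean level across the 6 compared libraries (x axis, log2 of CPM with 0.05 added) against the log2 fold change of remainder over IL-4 (y axis) for the 12421 genes tested. Grey points are genes that were not called, and orange and blue points are the 1219 called higher and 1097 called lower in the remainder, with some of the genes described in the text named. *Retnla*, lowest of all, had 1, 0 and 0 counts in the remainder, so that its fitted fold change depends on the prior count of the fit.

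The established IL-4 markers differed in both directions. Of the 27 tested genes in a list of 30, 9 were higher in the remainder, 13 were lower and 5 were not called, with a median log2 fold change of -0.473. Against untreated libraries, IL-4 alone raised 19 of the 27 and lowered 1. *Cish*, *Ccl17* and *Il4ra*, all higher in the remainder, were not called in IL-4 against untreated libraries (adjusted p = 0.40, 0.094 and 0.29, edgeR). *Arg1*, *Ccl17*, *Ccl22*, *Socs1* and *Cish* stood at the higher end, and *Retnla*, *Rnase2a*, *Ear2* and *Pparg* at the lower. The list was chosen with earlier results of these data known, and 22 of its 27 tested members were called, against 18.6% of all genes.

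*Retnla*, which encodes the secreted resistin-like protein RELMα, was measured at 781, 535 and 618 counts in the IL-4 libraries and at 1, 0 and 0 counts in the remainder. It was thus close to undetected in the remainder in all 3 mice. The ratio of IL-4 to remainder was 1993, with a 95% exact counting interval of 357 to 78746, and the gene was called (adjusted p = 7.0e-09, edgeR). *Retnla* passed the filter of 10 counts in 3 or more libraries only through the IL-4 libraries, where it was high. Its call therefore gives no separate support, and it was tested in only 3 of the 9 fits that left out a library or a mouse. The difference libraries held 1, 0 and 0 counts and the untreated libraries 0, 0 and 1. *Retnla* (ENSMUSG00000061100) lies on the forward strand of chromosome 16, 48842551 to 48844461, in mm10 (GRCm38), from which all positions are given. *Ccl17* (ENSMUSG00000031780, chromosome 8, 94810453 to 94812036), which encodes a chemokine for CCR4-bearing cells, went the other way. Its counts were 9, 3 and 0 in the IL-4 libraries and 76, 15 and 22 in the remainder.

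The promoters of these 2 IL-4 markers are shown because both hold the palindromic motif that STAT6 binds while their transcripts differed in opposite directions, and that of *Ifit1*, an interferon-stimulated gene described further on, because it holds a pair of interferon response elements. Each is the 250 bases before the RefSeq transcript start in GRCm38.p6, on the strand of the gene, at chr16:48842359-48842608 for *Retnla*, chr8:94810203-94810452 for *Ccl17* and chr19:34640639-34640888 for *Ifit1*, all on the forward strand. Capitals mark TTCNNNNGAA, the STAT6 motif, in the first pair and GAAANNGAAA, the interferon response element, in the last, found on either strand.
Retnla: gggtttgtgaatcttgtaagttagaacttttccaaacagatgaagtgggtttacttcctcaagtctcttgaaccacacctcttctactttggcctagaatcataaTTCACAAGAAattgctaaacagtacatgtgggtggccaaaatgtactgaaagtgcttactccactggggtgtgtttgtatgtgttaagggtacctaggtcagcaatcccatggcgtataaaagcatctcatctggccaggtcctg
Ccl17: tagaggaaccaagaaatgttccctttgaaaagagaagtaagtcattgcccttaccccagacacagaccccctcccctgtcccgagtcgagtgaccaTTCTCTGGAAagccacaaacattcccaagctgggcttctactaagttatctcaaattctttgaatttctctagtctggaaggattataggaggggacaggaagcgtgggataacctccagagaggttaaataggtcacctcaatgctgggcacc
Ifit1: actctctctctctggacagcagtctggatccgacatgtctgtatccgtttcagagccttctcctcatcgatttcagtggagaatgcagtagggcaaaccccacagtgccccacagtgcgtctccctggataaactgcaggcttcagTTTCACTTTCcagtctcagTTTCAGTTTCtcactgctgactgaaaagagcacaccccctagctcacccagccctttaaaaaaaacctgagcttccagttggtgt
The STAT6 motif lay 145 to 136 bases before the start in *Retnla* and 154 to 145 bases before it in *Ccl17*. Bases just after the RefSeq start were found in a GENCODE transcript for *Ccl17* and *Ifit1* but not for *Retnla*. The *Retnla* window also ends inside the gene span given above, so its distances hold for the RefSeq start only. The 2 interferon elements of *Ifit1* lay 104 to 95 and 85 to 76 bases before its start, and no searched motifs overlapped in these windows. Of the 20 tested IL-4 markers with a promoter in the table, 5 (25%) held the STAT6 motif, against 6.76% of all 27025 genes with a promoter and 5.7% of the 9480 that were tested. The motif was not particular to them, as 5 of 24 tested genes of the interferon response list (20.8%) held it too. The 5 IL-4 markers were *Ccl17*, *Pdcd1lg2* and *Tfec*, which were higher in the remainder, *Retnla*, which was lower, and *Clec7a*, which was not called. A match describes the letters of the window and does not show that the site is bound.

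Genes of alternative activation that were lower in the remainder included secreted RNases and transcription factors. *Rnase2a*, which encodes an eosinophil-associated ribonuclease, was at 84.6, 36.7 and 49.2 CPM in the IL-4 libraries and at 7.01, 1.9 and 4.33 CPM in the remainder (ENSMUSG00000047222, chromosome 14, 51255262 to 51256112). All remainder libraries lay below all IL-4 libraries and above the untreated ones, where it had 0 counts, and its log2 fold change was -3.74 (SE 0.25, adjusted p = 4.1e-06, edgeR). *Ear2*, of the same family, was at 6.29, 3.13 and 3.03 CPM against 0.31, 0.368 and 0.46 CPM. Of the 50-base stretches of *Ear2* transcripts, 41.5% also occur in other genes, which makes its counts uncertain. *Pparg*, the lipid-sensing nuclear receptor, was at 100.4, 96.3 and 86.0 CPM in the IL-4 libraries and 24.5, 24.1 and 27.6 CPM in the remainder (log2 fold change -1.89, SE 0.11, adjusted p = 2.1e-07, edgeR). Its remainder values were also below the 46.5, 54.6 and 48.7 CPM of untreated cells. *Irf4*, a transcription factor that IL-4 induces in macrophages, was at 21.3, 17.2 and 16.2 CPM against 8.56, 5.53 and 6.30 CPM. The remainder values of *Irf4* lay between those of the IL-4 libraries and the 4.40, 4.88 and 4.14 CPM of the untreated libraries.

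Other IL-4 markers were lower by smaller amounts. *Mgl2*, a galactose-type lectin, was at 12.1, 10.8 and 11.9 CPM in the IL-4 libraries against 6.02, 3.13 and 4.60 CPM in the remainder (log2 fold change -1.37, adjusted p = 8.6e-04, edgeR), with 13.1% of its stretches found elsewhere, most often in *Clec10a*. *Atp6v0d2*, a subunit of the vacuolar proton pump, was at 142, 165 and 148 CPM against 52.4, 91.7 and 57.6 CPM. *Flt1*, a VEGF receptor, was at 40.5, 29.4 and 31.4 CPM against 19.0, 11.7 and 17.3 CPM. For these genes the groups did not overlap. *Clec10a* (log2 fold change -0.97) and *Egr2* (-0.71) were also called lower. *Mrc1*, the mannose receptor, was at 206, 191 and 269.5 CPM in the IL-4 libraries and 133, 153 and 142 CPM in the remainder, at a log2 fold change of -0.61 (adjusted p = 0.0081, edgeR). Its call was lost without mouse 3 (adjusted p = 0.15, edgeR), without mouse 1 (adjusted p = 0.059) and without the remainder library of mouse 3 (adjusted p = 0.05). *Chil3*, which encodes the chitinase-like protein Ym1, had a log2 fold change of -0.52 (adjusted p = 0.011, edgeR). It shares 26.9% of its stretches with other genes, most often *Chil4*, and was no longer called in 4 of the 9 fits that left out a library or a mouse, with adjusted p from 0.058 to 0.19.

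Among the IL-4 markers that were higher in the remainder were *Arg1* and *Slc7a2*, for arginine breakdown and uptake, and chemokines. *Arg1* (ENSMUSG00000019987, chromosome 10, 24915221 to 24927484), which encodes arginase 1, was at 1.56, 1.66 and 1.37 CPM in the IL-4 libraries, at 24.9, 5.96 and 7.48 CPM in the remainder and at 0, 0.061 and 0 CPM in the difference libraries. Every remainder library was above every IL-4 library, and that of mouse 1 was the highest. The log2 fold change was 2.85 (SE 0.39, adjusted p = 2.7e-04, edgeR), while the difference libraries against the same IL-4 libraries gave -5.86. *Slc7a2*, a cationic amino acid transporter, was at 26.0, 29.5 and 27.2 CPM against 85.9, 68.0 and 83.4 CPM (log2 fold change 1.51, adjusted p = 3.4e-05, edgeR), and at 19.6, 14 and 11.3 CPM in the difference libraries. *Pdcd1lg2*, which encodes the checkpoint ligand PD-L2, was at 1.62, 1.02 and 1.08 CPM against 3.17, 4.05 and 3.28 CPM. Its log2 fold change of 1.5 had an adjusted p of 0.0055 in edgeR's test, or 0.051 without the IL-4 library of mouse 2, and its difference libraries were lower than the IL-4 libraries (-1.62).

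*Ccl22*, which encodes a second CCR4 ligand, was at 2.40, 3.70 and 1.23 CPM in the IL-4 libraries, 83.5, 37.7 and 33.4 CPM in the remainder and 26.4, 8.66 and 6.39 CPM in the difference libraries. Its log2 fold change was 4.33 (SE 0.33, adjusted p = 2.3e-06, edgeR), and the 2 groups were far apart. *Ccl17* was at 0.539, 0.192 and 0 CPM against 4.72, 0.921 and 1.44 CPM, at a log2 fold change of 3.23 (SE 0.49, adjusted p = 0.0012, edgeR). *Tfec*, a macrophage transcription factor of the MiT family, was at 22.6, 17.9 and 22.7 CPM against 49.3, 49.5 and 46.2 CPM (log2 fold change 1.21, adjusted p = 4.1e-05, edgeR). Of the 5 IL-4 markers that were not called, *Cdh1* had the lowest log2 fold change (-0.47) and *Ccl24* the highest (1.20, against -0.76 in the difference libraries). *Ccl24* passed the count filter only through the remainder libraries, where it had 21, 16 and 11 counts. *Clec7a*, the receptor dectin-1, was at 461, 397 and 377 CPM against 274, 412 and 288 CPM and was called lower in some alternatives, among them the fits without the remainder library of mouse 2 (adjusted p = 0.0015, edgeR) or without mouse 2 (adjusted p = 0.0041).

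**Figure D2:**
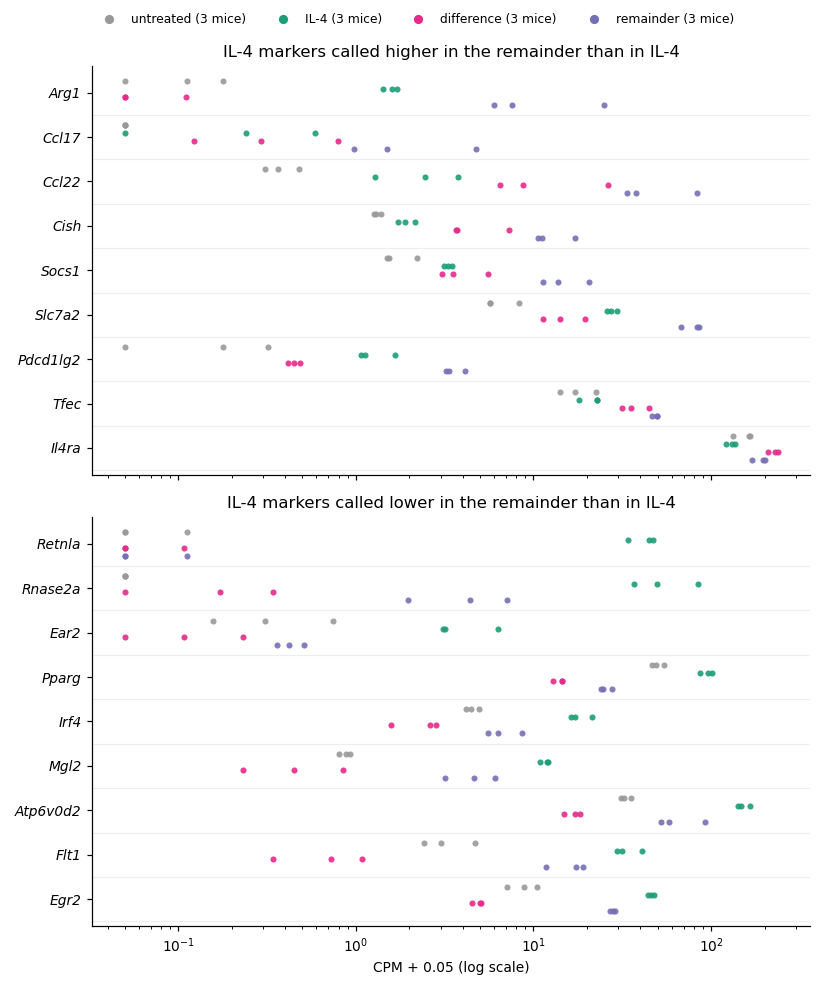
CPM (x axis, log scale, values drawn after adding 0.05 so that 0 can be shown) of 18 IL-4 markers in each library, with genes called higher in the remainder in the upper panel and genes called lower in the lower panel. Each point is 1 library of 1 of 3 mice, coloured by group, and in every gene drawn the 3 remainder points lie on one side of the 3 IL-4 points.

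Taking the IL-4-driven genes from these cells in place of a list, 391 of 12421 genes (3.15%) were called in IL-4 against untreated libraries, 267 higher and 124 lower. Both comparisons share the IL-4 libraries, so the counts that follow describe positions and are not independent of that choice. Of the 267 genes that IL-4 raised, 82 were higher in the remainder than in the IL-4 libraries, 92 were lower and 93 were not called, with a median log2 fold change of -0.077. These shares, 30.7% and 34.5%, compare with 9.05% and 8.1% of the 12030 genes not called in IL-4 against untreated libraries. The mean of the remainder lay above the IL-4 mean in 124 of them, between the IL-4 and untreated means in 94, and below the untreated mean in 49. Of the 124 genes that IL-4 lowered, 48 (38.7%) were higher in the remainder, 31 (25%) lower and 45 not called. Their remainder mean lay beyond the IL-4 mean in 55, between both means in 40 and past the untreated mean in 29.

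*Itgax*, the integrin subunit CD11c, was at 20.0, 25.2 and 24.0 CPM in untreated, 199.8, 175 and 154 CPM in IL-4 and 240.1, 232 and 260.1 CPM in remainder libraries. Its log2 fold change of remainder over IL-4 was 0.47 (adjusted p = 0.010, edgeR), which was no longer called without the remainder library of mouse 3 (adjusted p = 0.068, edgeR) or without mouse 3 altogether (adjusted p = 0.21), and the difference libraries were lower than the IL-4 libraries (-1.59). *Dcstamp*, needed for macrophage fusion, was at 9.28, 10.4 and 5.84 CPM in IL-4 and 12, 11.4 and 10.5 CPM in remainder libraries and was not called (log2 fold change 0.43, adjusted p = 0.21, edgeR), except without mouse 2 (log2 fold change 0.61, adjusted p = 0.049). Its difference libraries were at 4.17, 3.29 and 4.0 CPM. In both genes every remainder library was above every IL-4 library. Other genes that IL-4 raised strongly went the other way, as *Flt1* (log2 fold change of remainder over IL-4 -1.08), *Retnla* and *Rnase2a*, described above, were lower in the remainder.

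Among the genes that IL-4 lowered most, 5 of 6 were higher in the remainder. The share was 38.7% of all 124 genes that IL-4 lowered and 9.81% of all genes tested. All 6 were picked for low values in the same IL-4 libraries, so that the choice itself favours a higher remainder. *Marco*, a scavenger receptor for bacteria and particles, was at 11.6, 12.1 and 12.7 CPM in untreated, 3.35, 4.66 and 4.04 CPM in IL-4 and 22.9, 19.5 and 24.4 CPM in remainder libraries (log2 fold change of remainder over IL-4 2.47, SE 0.14, adjusted p = 2.8e-07, edgeR). Its remainder values were above those of the untreated libraries as well. *Siglece*, an inhibitory sialic acid receptor, was at 8.92, 10.0 and 9.73 CPM in IL-4 and 33.2, 30.6 and 26.9 CPM in remainder libraries, against 24.6, 24.4 and 35.1 CPM in untreated libraries. *Pilra*, an inhibitory paired receptor, was at 7.67, 9.20 and 7.21 CPM and 23.1, 26.7 and 22.5 CPM (log2 fold change 1.58, adjusted p = 5.2e-06, edgeR), and 20.8% of its stretches also occur in other genes. *Pilrb1* (log2 fold change 1.03, 32.1% of stretches shared) and *Adgre4* (1.19) were called higher too. *Adgre4* was not called without the IL-4 library of mouse 2 (adjusted p = 0.078, edgeR) or of mouse 3 (adjusted p = 0.06), or without mouse 3 altogether (adjusted p = 0.12). *Fpr1*, a receptor for formyl peptides, was the sixth, at 4.79, 4.09 and 4.61 CPM in IL-4 and 4.65, 4.05 and 5.65 CPM in remainder libraries, where the ranges overlapped.

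**Figure D3:**
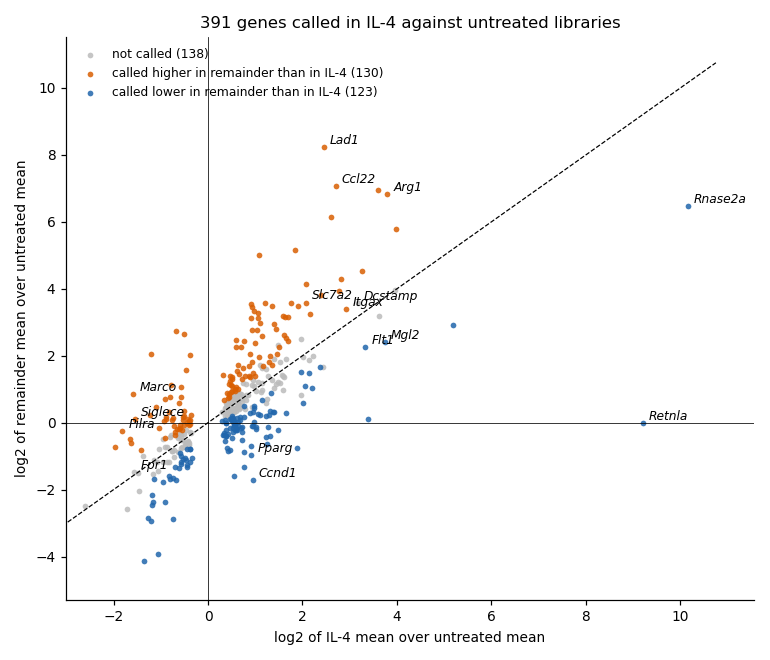
Log2 ratio of mean CPM to untreated cells for the 391 genes called in IL-4 against untreated libraries, in IL-4 libraries (x axis) and in the remainder (y axis), each mean with 0.05 CPM added. Both axes share the untreated libraries, points on the dashed diagonal have the same mean in both groups, and orange and blue points were called higher and lower in the remainder than in the IL-4 libraries.

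In the IL-4 receptor and JAK-STAT list, 13 of 30 tested genes were higher in the remainder, 6 were lower and 11 were not called (median log2 fold change 0.090), against 9.81% higher and 8.83% lower of all genes tested. Receptor chains came first. *Il2rg*, the common gamma chain that pairs with the IL-4 receptor alpha chain, was at 106, 101 and 88.2 CPM in the IL-4 libraries and 282, 264 and 248 CPM in the remainder (log2 fold change 1.43, SE 0.08, adjusted p = 1.6e-07, edgeR), although 30.5% of its exon bases overlap another gene on the same strand. *Il4ra*, the alpha chain, was at 137, 121 and 131 CPM against 195, 171 and 201 CPM (log2 fold change 0.55, adjusted p = 0.0023, edgeR, or 0.089 without mouse 3). *Il6st*, which encodes the shared receptor subunit gp130, was lower, at 209, 233 and 209 CPM against 123, 144 and 157 CPM. The adaptor *Irs2* was lower as well (log2 fold change -0.68), and the groups did not overlap in any of these genes.

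The kinase *Jak2* was at 28.8, 29.2 and 30.0 CPM in the IL-4 libraries and 60.3, 97.0 and 57.4 CPM in the remainder. Of the STAT factors, *Stat6* itself was not called, at 372, 356 and 326 CPM against 334, 313 and 322 CPM (log2 fold change -0.12, SE 0.08, adjusted p = 0.37, edgeR, or 0.049 with total count scaling). *Stat3* was at 182, 167 and 153 CPM against 232, 233 and 239 CPM (log2 fold change 0.49, adjusted p = 0.0013, edgeR, or 0.068 without mouse 3). *Stat2*, a factor of interferon signalling, was called higher in the remainder (log2 fold change 1.51).

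The 4 highest log2 fold changes of this list were those of feedback inhibitors. *Socs1* was at 3.41, 3.07 and 3.24 CPM in the IL-4 libraries, 20.5, 11.3 and 13.7 CPM in the remainder and 5.49, 2.99 and 3.49 CPM in the difference libraries (log2 fold change 2.19, SE 0.16, adjusted p = 2.2e-06, edgeR). *Cish* was at 1.68, 1.85 and 2.09 CPM against 17.1, 10.6 and 11.1 CPM (log2 fold change 2.76, adjusted p = 4.2e-06, edgeR). *Socs3*, which is induced downstream of STAT3, was at 12.8, 9.71 and 9.73 CPM against 50.5, 27.6 and 33.9 CPM (log2 fold change 1.78, adjusted p = 9.9e-06, edgeR). For all 3 genes the lowest remainder library was more than 2-fold above the highest IL-4 library. *Socs2* was also higher (log2 fold change 1.62, adjusted p = 0.0022, edgeR, or 0.062 without mouse 3), and *Socs5* was lower (-0.77).

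Genes for antigen presentation on MHC class II were higher in the remainder, in 11 of 13 tested genes, with 0 lower. Their median log2 fold change was 1.745, and 9.81% of all genes tested were higher and 8.83% lower. IL-4 alone had raised 7 of the 13 over untreated cells. *Ciita*, the master regulator of class II transcription, was at 32.3, 28.2 and 24.0 CPM in the IL-4 libraries and 87.0, 106 and 90.7 CPM in the remainder (log2 fold change 1.74, SE 0.14, adjusted p = 3.1e-06, edgeR). *Cd74*, the invariant chain, was at 1404, 1325 and 1089 CPM against 3688, 3695 and 3099 CPM. *H2-Ab1*, a class II beta chain, was at 241, 259 and 198 CPM against 1279, 1316 and 1009 CPM (log2 fold change 2.37, adjusted p = 1.4e-07, edgeR), and the untreated libraries were at 105, 101 and 96.3 CPM. In these 3 genes each remainder library exceeded every IL-4 library. *H2-Aa* (2.22) and *H2-Eb1* (2.37) showed log2 fold changes of similar size, and *H2-DMa* (0.88) and *Ifi30* (1.08), for peptide loading and lysosomal thiol reduction, showed smaller ones.

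In a list built around PGE2, 5 of 19 tested genes were higher in the remainder, 3 were lower and 11 were not called. Its median log2 fold change was 0.048. Besides genes for making, degrading and sensing PGE2 it holds others, such as *Hpgds*, *Ptgir* and *Abcc4*. The shares were 9.81% higher and 8.83% lower over all genes tested, and 2 of these 8 calls, those of *Abcc4* and *Hpgds*, were lost in most fits that left out a library or a mouse. *Ptgs2*, which encodes COX-2, was at 1.02, 0.958 and 1.23 CPM in the IL-4 libraries and 7.51, 9.46 and 5.91 CPM in the remainder (log2 fold change 2.85, SE 0.31, adjusted p = 4.5e-05, edgeR). *Ptges*, the inducible PGE2 synthase, was at 2.04, 2.30 and 2.23 CPM against 8.44, 7.06 and 7.02 CPM (log2 fold change 1.77, adjusted p = 2.0e-05, edgeR). *Hpgd* (ENSMUSG00000031613, chromosome 8, 56294585 to 56321043), which encodes the enzyme that inactivates PGE2, was at 131, 130.3 and 111 CPM against 8.38, 19.8 and 15.3 CPM (log2 fold change -3.13, SE 0.23, adjusted p = 2.0e-06, edgeR). Both synthesis genes were thus higher and the breakdown gene lower, with no overlap between the groups. The constitutive enzyme gene *Ptgs1* (log2 fold change -0.30) and all 4 receptor genes for PGE2 were not called.

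The prostacyclin receptor gene *Ptgir* was at 39.3, 29.5 and 32.7 CPM in the IL-4 libraries and 72.5, 56.5 and 65.2 CPM in the remainder (log2 fold change 0.94, adjusted p = 4.6e-05, edgeR). Of the immediate-early nuclear receptor genes that prostaglandins can induce, *Nr4a3* was at 0.12, 0.255 and 0.0721 CPM against 2.61, 2.21 and 1.38 CPM and *Nr4a1* at 4.01, 5.75 and 4.90 CPM against 1.55, 2.09 and 2.36 CPM. The first was higher in every remainder library (log2 fold change 3.73) and the second lower (-1.29, adjusted p = 0.0035, edgeR, or 0.073 without mouse 3). *Abcc4*, an exporter of prostaglandins, had a log2 fold change of 0.32 (adjusted p = 0.043, edgeR). *Hpgds*, the synthase of prostaglandin D2, had one of -0.93 (adjusted p = 0.033, edgeR), and the calls were lost in 6 and 5 of the 9 fits that left out a library or a mouse. Without mouse 3 the adjusted p was 0.41 for *Abcc4* and 0.42 for *Hpgds* in edgeR's test.

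**Figure D4:**
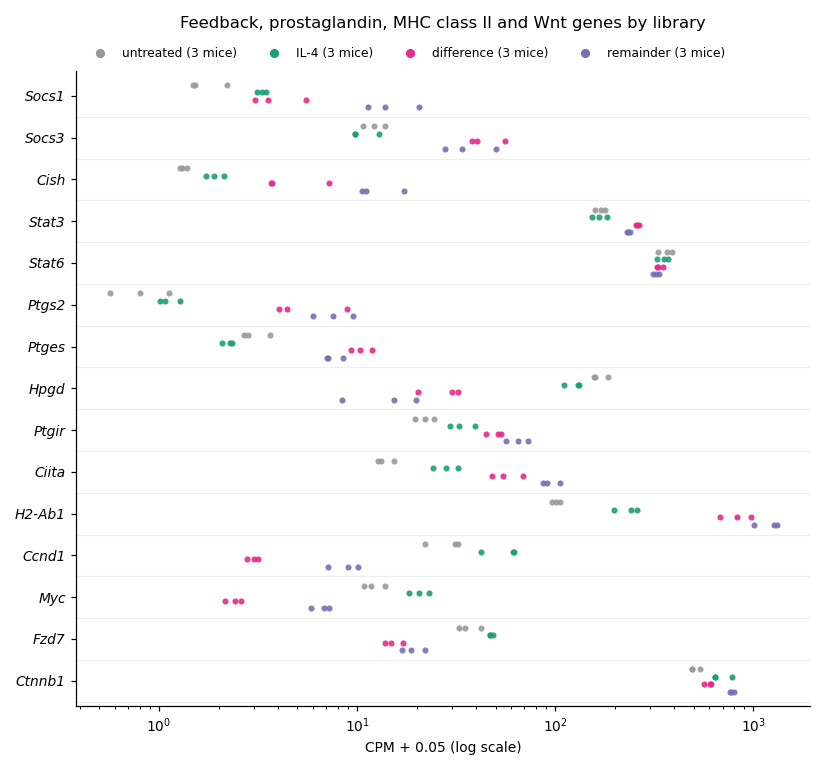
CPM (x axis, log scale, values drawn after adding 0.05) of feedback, prostaglandin, MHC class II and Wnt genes in each library, 1 point per mouse and group. The remainder points of Socs1, Socs3, Cish, Ptgs2, Ptges, Ciita and H2-Ab1 lie to the right of the IL-4 points and those of Hpgd, Ccnd1, Myc and Fzd7 to the left.

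Of 26 listed Wnt targets, feedback genes, receptors and transducers, 13 passed the count filter. Among these, 0 were called higher and 7 lower, against 9.81% and 8.83% of all genes tested, with a median log2 fold change of -0.659. *Axin2*, the most widely used target, was below the filter, with 0, 1 and 0 counts in the IL-4 libraries and 11, 9 and 13 in the remainder. Its ratio of remainder to IL-4 was 32.0 (95% exact counting interval 5.36 to 1303), and 0, 0 and 1 counts were found in untreated and 1, 1 and 5 in difference libraries. When all genes with at least 1 count were tested, its adjusted p was 0.00026 in edgeR's test (log2 fold change 4.60). *Ccnd1*, which encodes cyclin D1, was at 42.3, 61.9 and 60.9 CPM in the IL-4 libraries and 9.0, 7.06 and 10.0 CPM in the remainder (log2 fold change -2.64, SE 0.16, adjusted p = 3.8e-07, edgeR), and 23.4% of its exon bases overlap a gene on the other strand. *Myc* was at 18.3, 20.4 and 22.9 CPM against 7.20, 5.77 and 6.76 CPM. *Fzd7*, a Frizzled receptor gene, was at 47.1, 48.8 and 46.9 CPM against 16.8, 18.7 and 21.9 CPM. All 3 were below the IL-4 level in every remainder library, and *Tcf7l2* (-1.23), *Dkk2* (-2.29), *Lrp5* (-0.51) and *Fzd5* (-0.48) were called lower too. Since *Fzd7*, *Fzd5* and *Lrp5* encode receptors and *Tcf7l2* a transducer, the 7 lower calls are not a count of targets. The call of *Lrp5* was lost without mouse 3 (adjusted p = 0.14, edgeR), and that of *Fzd5* in 8 of the 9 fits that left out a library or a mouse, with adjusted p from 0.062 to 0.16. *Ctnnb1*, the gene for β-catenin, was not called (log2 fold change 0.18, adjusted p = 0.17, edgeR, and -0.20 in the difference libraries).

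Acute-phase, chemokine and interferon genes were among those with the highest fold changes. Of the toll-like receptor and NF-κB list, 15 of 29 tested genes were higher in the remainder and 7 lower (median log2 fold change 0.471). Shares of all genes tested were 9.81% higher and 8.83% lower. *Ccl5* (ENSMUSG00000035042, chromosome 11, 83525778 to 83530518), a chemokine for T cells and monocytes, was at 13.2, 11.9 and 11 CPM in the IL-4 libraries and 2089, 2430.3 and 1600.3 CPM in the remainder (log2 fold change 7.39, SE 0.13, adjusted p = 1.5e-11, edgeR). *Saa3*, an acute-phase serum amyloid gene, was at 4.97, 9.20 and 13.3 CPM against 997, 1474 and 853 CPM (log2 fold change 6.95, adjusted p = 4.7e-08, edgeR). *Acod1*, which encodes the enzyme that makes itaconate, was at 21.3, 18.5 and 13.8 CPM against 676, 526 and 604 CPM (log2 fold change 5.08, adjusted p = 7.8e-10, edgeR). In all 3 genes the groups were far apart. *Clec4e* (3.42), *Il1b* (1.99) and *Sod2* (1.33) were also called higher.

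Part of the same list went the other way. *Tnf* was at 27.3, 22.5 and 24.5 CPM in the IL-4 libraries and 8.19, 6.75 and 7.35 CPM in the remainder (log2 fold change -1.74, SE 0.13, adjusted p = 2.1e-06, edgeR). *Nfkbiz*, an NF-κB cofactor, was at 32.1, 30.5 and 33.1 CPM against 7.26, 13.4 and 11.8 CPM. The chemokine genes *Ccl4* (-1.46) and *Ccl3* (-0.84) were lower too. The groups did not overlap in these 4 genes, which were below both the IL-4 and the untreated levels in the remainder.

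Of the interferon response list, 26 of 30 genes were higher in the remainder and 0 were lower, with a median log2 fold change of 1.785. Among all genes tested, 9.81% were higher and 8.83% lower. IL-4 against untreated cells had a median of -0.268 over the same genes. *Irf7*, the regulator of type I interferon genes, was at 51.1, 56.7 and 57.8 CPM in the IL-4 libraries and 854, 551 and 549 CPM in the remainder (log2 fold change 3.52, SE 0.17, adjusted p = 6.9e-08, edgeR). *Gbp2*, a guanylate-binding protein gene, was at 15.8, 17.2 and 13.1 CPM against 129, 121 and 103 CPM. *Ifit1*, whose promoter is printed above, was at 12.5, 17.7 and 12 CPM against 75.5, 63.4 and 53.6 CPM (log2 fold change 2.17, adjusted p = 1.7e-05, edgeR). *Zbp1* (2.83), *Oasl1* (3.33) and *Usp18* (2.25) lay in the same range. The interferon response element was found before the start of 12 of the 24 tested genes of the list that have a promoter in the table (50%), against 3.46% of all genes with one. It was found in 7.99% of the genes called higher and in 3.2% of those called lower.

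**Figure D5:**
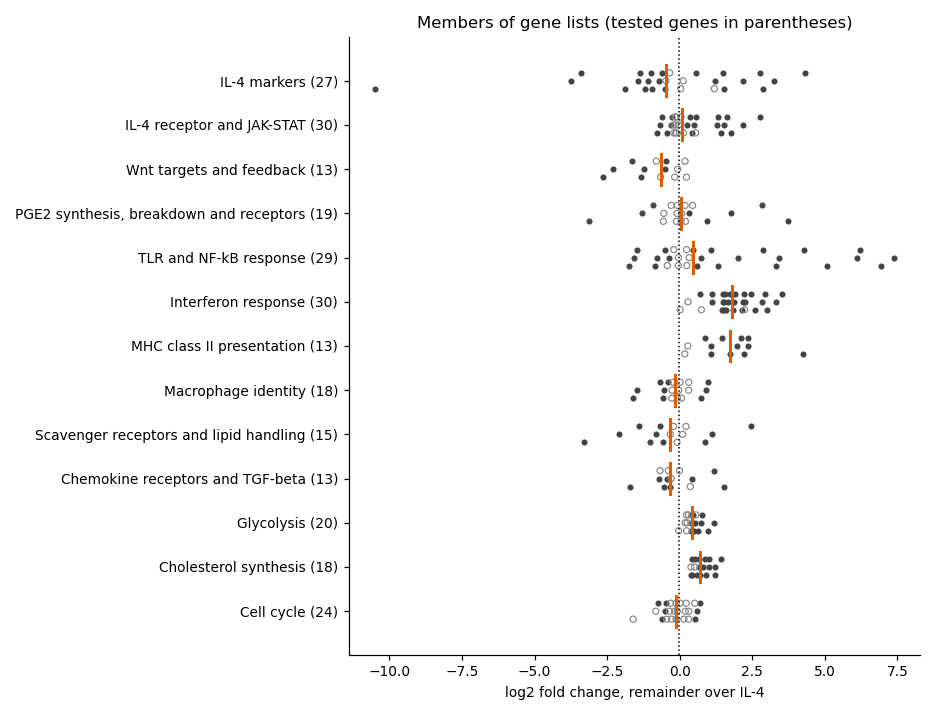
Log2 fold change of remainder over IL-4 (x axis) for each tested member of 13 gene lists, with filled points for called genes, open points for genes that were not called and a vertical bar at the list median. The interferon and MHC class II medians lie at 1.785 and 1.745, the IL-4 marker and Wnt medians at -0.473 and -0.659, and the dotted line marks the median of all 12421 genes at -0.016.

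The rule for extreme changes also named genes outside these lists, in both directions. *Susd2*, a membrane protein gene, had 2, 3 and 3 counts in the IL-4 libraries and 506, 447 and 301 in the remainder, a ratio of 152 (95% exact counting interval 77.0 to 353). *Lad1*, which encodes ladinin, was at 1.14, 0.575 and 0.288 CPM against 54.7, 33.8 and 29.5 CPM (log2 fold change 5.90, adjusted p = 3.6e-08, edgeR). *H2-M2*, a non-classical MHC class I gene, was at 1.20, 1.98 and 1.59 CPM against 47.8, 116 and 56.5 CPM. All 3 genes were below 2 CPM in every IL-4 library. *Ly6i* (5.20), the acute-phase gene *Orm1* (5.85, 20.4% of stretches shared) and the complement gene *Cfb* (6.20, 79.5% of exon bases shared with a gene on the same strand) completed the 8 highest with *Ccl5* and *Saa3*.

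The 8 lowest included *Retnla*, *Rnase2a* and *Hpgd*, described above. *Nes*, an intermediate filament gene, was at 6.41, 9.20 and 9.37 CPM in the IL-4 libraries and 0.745, 0.246 and 0.394 CPM in the remainder (log2 fold change -4.13, adjusted p = 3.5e-06, edgeR). *Atp2b4*, a plasma membrane calcium pump gene, was at 9.76, 7.34 and 9.01 CPM against 0.931, 0.553 and 0.591 CPM. *Ets1*, a transcription factor gene, was at 19.0, 23.7 and 24.2 CPM against 2.05, 1.96 and 2.36 CPM. In each the remainder fell short of the IL-4 and untreated levels alike. *Cd163*, the haemoglobin scavenger receptor, was at 11.1, 9.77 and 11.6 CPM against 1.05, 1.04 and 1.18 CPM (log2 fold change -3.30, SE 0.18, adjusted p = 1.9e-07, edgeR). The remaining gene, the ribosomal RNA gene *n-R5-8s1*, had 24, 554 and 13 counts in the IL-4 libraries and 8, 5 and 5 in the remainder, so that its log2 fold change of -4.28 rested on the IL-4 library of mouse 2 (-1.63, adjusted p = 0.21 in edgeR's test without it).

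Of the genes for scavenger receptors and lipid handling, 7 of 15 tested were lower in the remainder and 3 higher. Their median log2 fold change was -0.322, and 8.83% of all genes tested were lower and 9.81% higher. *Lpl*, lipoprotein lipase, was at 1794, 2321 and 2476 CPM in the IL-4 libraries and 396, 511 and 656 CPM in the remainder (log2 fold change -2.09, SE 0.12, adjusted p = 3.4e-07, edgeR). *Cd36*, a fatty acid receptor, was at 293, 342 and 347 CPM against 115, 139 and 117 CPM. *Apoe*, of the macrophage identity list, was at 11476, 13593 and 13366 CPM against 3654, 6119 and 4556 CPM (log2 fold change -1.46, adjusted p = 8.2e-05, edgeR). In all 3 the groups were separate. *Lrp1* (-1.02) and the cholesterol exporter gene *Abcg1* (-0.81) were lower as well, while *Fabp5* (0.87) was among those that were higher, as was *Marco*.

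All 18 genes of cholesterol synthesis had values above 0, and 16 were called higher and 0 lower (median log2 fold change 0.686). Called shares of all genes tested were 9.81% higher and 8.83% lower. *Mvd*, of the mevalonate pathway, was at 34.3, 26.8 and 27.9 CPM in the IL-4 libraries and 90.2, 70.4 and 75.8 CPM in the remainder (log2 fold change 1.41, adjusted p = 3.3e-06, edgeR). No remainder library overlapped the IL-4 libraries for this gene. *Sqle*, of the later steps towards cholesterol, had a log2 fold change of 1.03.

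In the macrophage identity list, 3 of 18 genes were higher in the remainder, 6 lower and 9 not called, against 9.81% higher and 8.83% lower of all genes tested. *Csf1r*, the receptor for the growth factor in the medium, was at 6148, 5536 and 5128 CPM in the IL-4 libraries and 4742, 4509 and 4782 CPM in the remainder and was not called (log2 fold change -0.26, adjusted p = 0.12, edgeR, or 0.014 with total count scaling). *Fcgr1*, the high-affinity IgG receptor, was at 85.8, 118 and 96.0 CPM in the IL-4 libraries and 211, 189 and 190.2 CPM in the remainder (log2 fold change 0.98, adjusted p = 5.7e-05, edgeR). *Cd14* (0.72) and *Itgam* (0.90, 68.7% of exon bases shared with a gene on the same strand) were also higher. *Cd5l*, a secreted macrophage scavenger protein, was at 46.1, 58.8 and 52.3 CPM against 15.5, 16.9 and 18.4 CPM and was lower.

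Of the ligands and receptors that the study names, *Tgfb1* was at 488, 472 and 458 CPM in the IL-4 libraries and 401, 348 and 383 CPM in the remainder (log2 fold change -0.33, adjusted p = 0.037, edgeR), and its call was lost in 7 of the 9 fits that left out a library or a mouse, with adjusted p from 0.075 to 0.27. *Tgfb3* was at 1.08, 1.72 and 1.37 CPM against 0.621, 0.43 and 0.197 CPM (log2 fold change -1.72, adjusted p = 0.0074, edgeR), and its call was lost without mouse 3 (adjusted p = 0.16), without mouse 2 (adjusted p = 0.051) and without the IL-4 library of mouse 2 (adjusted p = 0.052). *Cxcr3* was at 6.29, 6.77 and 5.34 CPM against 4.34, 4.11 and 5.71 CPM and was not called (log2 fold change -0.39, adjusted p = 0.13, edgeR, and 0.46 in the difference libraries). All 3 had lower means in the remainder. *Ccr1*, a receptor for CCL5, was at 5.63, 6.51 and 6.13 CPM against 18.7, 14.2 and 20.7 CPM (log2 fold change 1.54, adjusted p = 2.2e-04, edgeR).

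Markers of other cells moved with some of these groups. Of 10 neutrophil markers, 7 were tested, and the list summed to 65.1 to 75.6 CPM in the IL-4 libraries and to 32.3 to 37.3 CPM in the remainder. In the remainder 5 of the 7 were lower and 1 was higher, against 8.83% and 9.81% of all genes tested. The higher one was *Prtn3*, with 3, 3 and 0 counts against 16, 6 and 8 and its call lost in 5 of the 6 fits without a library or a mouse that tested it, and the defining markers *S100a9* and *Ngp* had log2 fold changes of -0.98 and -1.17. The part of these cells in other results was not tested. Of 7 dendritic cell markers, 3 were tested. *Ccr7* was higher (0.479, 0.447 and 0.288 CPM against 19.8, 6.94 and 7.22 CPM) and *Cd209a* lower (adjusted p = 0.0075, edgeR, or 0.1 without mouse 3). The list summed to 2.64 to 2.75 CPM in the IL-4 libraries and to 8.47 to 21.2 CPM in the remainder, where most of the sum was *Ccr7*. The untested markers had few counts, with *Clec9a* at 3, 3 and 4 against 0, 2 and 0, *Xcr1* at 1, 2 and 6 against 3, 3 and 0. Likewise *Flt3* had 4, 2 and 2 against 3, 2 and 5, and *Siglech* 2, 2 and 2 against 1, 6 and 1. Of 7 B cell markers, 2 were tested. *Ighm*, the IgM heavy chain gene, was lower, at 31.3, 43.4 and 36.8 CPM against 4.53, 4.79 and 5.84 CPM. *Cd79b*, of the B cell receptor, had the opposite direction in all 3 mice and was not called, at 2.69, 2.75 and 2.23 CPM against 3.48, 3.56 and 3.48 CPM (log2 fold change 0.45, adjusted p = 0.086, edgeR). T cell markers summed to at most 2.04 CPM in any compared library, with *Cd8a* at 0 throughout and *Lck* called higher, a call lost in all 9 fits that left out a library or a mouse. Stromal markers summed to 13.6 to 37.3 CPM in the IL-4 libraries and 11.9 to 24.3 CPM in the remainder, with *Acta2* called higher, a call lost in 6 of those 9 fits. Mast cell and eosinophil markers gave 0 called genes of 2 tested.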

How the data were processed

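Single reads were checked (FastQC 0.11.7), trimmed (Trimmomatic 0.36), mapped to mm10 (STAR 2.6.0) and assigned to genes (HTSeq 0.11.1) by the authors, who deposited the raw count of each gene for 48526 Ensembl identifiers, of which 48058 had a symbol in GENCODE M21 and 0 rows named no gene. Whether strand was used in counting is not given in the sources used here.

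Remainder and difference libraries were computed per mouse as described, and 0 values were negative. Because the remainder joins 2 columns, its counts are exact only if the columns are such sums. Genes that reached 10 counts in 3 or more of 12 libraries (untreated, IL-4, difference and remainder) were tested together in edgeR 4.0.16 (R 4.3.3, limma 3.58.1) with TMM scaling, the quasi-likelihood F-test and mouse as a term. The labels give 1 sample of every group per mouse, and same-mouse IL-4 and remainder deviations correlated at 0.286, 0.156 and 0.013 in mouse 1, 2 and 3. Other pairs of groups varied in sign, from -0.417 (untreated and remainder, mouse 2) to 0.454 (untreated and difference, mouse 1). A mouse effect shared by all groups was thus not shown. Alternatives included DESeq2 1.42.0, other scalings and filters, the columns as deposited, and leaving out libraries or mice.

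Genes were named from 20 lists, from those the study names for these cells, from the 8 called genes that were highest and the 8 that were lowest by fold change, and from the 6 that IL-4 raised most and the 6 it lowered most, each with 1 direction in all 3 mice and, where higher, a group mean no lower than 8 CPM. Members and lists were chosen with earlier results of these data known. Intervals and floors cover counting error only. Promoters came from RefSeq, and 6 motifs were searched in the 250 bases before each start. Some members of the lists are counted but not reported by name here.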

Additional observations from a re-analysis of the deposited data

How the results depend on the processing

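The number of genes called between remainder and IL-4 libraries, 2316, was 2191 with DESeq2 and 2521 without the replicate block, and that between IL-4 and untreated libraries, 391, was 492 and 422. Leaving out libraries or mice gave 906 (without mouse 3) to 3324 genes (without the remainder library of mouse 2), and 59 (without mouse 3) to 376 genes. With the Wnt3a+IL-4 columns as deposited in place of the remainder, 3483 genes were called, of 13368 tested. At an adjusted p under 0.01 the counts were 1401 and 209, and with a log2 fold change of at least 1 in either direction 721 and 133. Testing all genes with at least 1 count gave 2740 and 749. A fit of only the compared libraries gave 2916 and 325. Of those 2916 genes, 1393 were higher and 1523 lower in the remainder, in place of 1219 and 1097. Total count scaling moved the median of all genes to -0.068, with 44.1% of called genes higher in the remainder in place of 52.6%, and the IL-4 split went from 267 higher and 124 lower to 230 and 202.

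With the difference in place of the remainder, the direction was reversed for *Arg1* (log2 fold change -5.86), *Slc7a2* (-0.90), *Pdcd1lg2* (-1.62), *Itgax* (-1.59), *Dcstamp* (-1.13), *Ccl24* (-0.76), *Cxcr3* (0.46) and *Ctnnb1* (-0.20). With the columns as deposited it was reversed for *Itgax* (-0.23), *Dcstamp* (-0.17), *Cxcr3* (0.088) and *Ctnnb1* (-0.003), and in fits that left out a library or a mouse for *Fpr1* (-0.016 to 0.239 over these fits). The cause was not tested. Of 129 genes named, 92 kept direction and call in every alternative, other than the difference, that tested them. Not all alternatives tested every gene, as 122 were tested with a filter of at least 1 CPM and 125 without mouse 3. Without the replicate block the calls of *Bub1b* and *Ccnb1* were lost and *Ccl24* was called (adjusted p = 0.039, edgeR).

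Counts near 0 limit the precision for genes such as *Retnla*, *Ccl17* and *Axin2*. The 3 mice give few degrees of freedom, and the fit without mouse 3 lost the calls of 24 named genes, the most of any fit run. The assignment of the remainder to a culture is not proven by the labels, so that each result holds for the remainder and not for a named treatment.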

Other observations

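Of 20 genes of glycolysis, 13 were higher in the remainder than in the IL-4 libraries and 0 were lower, against 9.81% and 8.83% of all genes tested. Their median log2 fold change was 0.423, against -0.016 over all genes tested. *Aldoc*, an aldolase gene, was at 32.4, 34.0 and 35.0 CPM in the IL-4 libraries and 82.8, 74.5 and 74.6 CPM in the remainder (log2 fold change 1.20, SE 0.10, adjusted p = 6.9e-06, edgeR). *Slc16a3*, which encodes the lactate exporter MCT4, was at 61.6, 54.6 and 55.4 CPM against 137, 104 and 98.5 CPM (log2 fold change 0.98, adjusted p = 1.8e-04, edgeR). In both the groups were separate, and IL-4 alone had lowered *Aldoc* against untreated cells (log2 fold change -0.61, adjusted p = 0.0065, edgeR). Without the remainder library of mouse 1 or that of mouse 3, 7 of the 20 genes were called higher. Without mouse 3 altogether the number was 5, and 0 were called lower in any of these fits.

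Of 24 cell cycle genes, 3 were higher in the remainder, 4 were lower and 17 were not called (median log2 fold change -0.124). Over all genes tested the shares were 9.81% higher and 8.83% lower, and 29.2% of this list was called against 18.6% of all genes. The 4 lower genes were the replication genes *Pcna*, *Mcm2*, *Mcm4* and *Mcm6*. *Pcna*, the polymerase clamp, was at 106, 130.2 and 128 CPM in the IL-4 libraries and 73.4, 70.8 and 75.3 CPM in the remainder (log2 fold change -0.73, adjusted p = 7.4e-04, edgeR), and 19.1% of the 50-base stretches of its transcripts also occur in other genes. The 3 higher genes, *Ccnb1*, *Ccne1* and *Bub1b*, were called at adjusted p from 0.042 to 0.049 (edgeR) and were not called without the remainder library of mouse 1 or of mouse 3, nor with total count scaling. Without the mouse as a term in the fit, *Ccnb1* (adjusted p = 0.18, edgeR) and *Bub1b* (adjusted p = 0.15, edgeR) were not called either. The calls of *Mcm2* and *Mcm4* were each lost in 6 of the 9 fits that left out a library or a mouse, with adjusted p up to 0.29 and 0.26.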
